A study of Arabidopsis thaliana with 16 samples.

Results

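The plasma membrane intrinsic proteins (PIPs) are the aquaporins of the plant plasma membrane, channels that let water and, for some members, hydrogen peroxide or carbon dioxide cross it. Transcript levels of 10 of the 13 PIP genes of Arabidopsis thaliana were followed in whole seedlings. The PIP1 genes are PIP1A (PIP1;1, AT3G61430), PIP1B (PIP1;2, AT2G45960), PIP1C (PIP1;3, AT1G01620), PIP1E (PIP1;4, AT4G00430) and PIP1D (PIP1;5, AT4G23400). The PIP2 genes are PIP2A (PIP2;1, AT3G53420), PIP2B (PIP2;2, AT2G37170), PIP2C (PIP2;3, AT2G37180), PIP2F (PIP2;4, AT5G60660) and PIP3 (PIP2;7, AT4G35100), the last being a PIP2 gene despite its older name. The letter names, symbols or synonyms in RefSeq, are used from here on. The genes were found by locus identifier among the 32833 loci counted in each library, and every one of the 10 was counted in all 16 libraries, with at least 507 reads. The seedlings were wild-type Col-0 or carried seu-6, an allele of SEUSS (SEU), which encodes a co-regulator of transcription. For the salt experiment, seedlings aged 14 days spent 15 min in liquid 1/2 MS, a mineral growth medium, that held 300 mM NaCl or no addition (mock). For the sorbitol experiment, seedlings aged 10 days spent 6 h in the same medium, with 250 mM sorbitol or no addition. The 2 genotypes and 4 media make 8 groups, each of 2 libraries that the series' design text calls biological replicates. All plants grew under 16 h of light and 8 h of dark, and every group, mocks included, was moved into liquid medium.

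Aquaporins of this family work as tetramers, and the PIP1 and PIP2 subgroups form mixed tetramers. PIP2 proteins generally conduct water well on their own, whereas PIP1 proteins usually depend on PIP2 partners to reach the plasma membrane. In Arabidopsis roots and leaves PIPs set much of the cell-to-cell water flow, and salt and osmotic stress are known to alter their transcription, phosphorylation and trafficking.

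The libraries held between 39756463 and 42676953 gene counts, and TMM scaling factors lay between 0.918 and 1.09. Levels are given as CPM, read counts scaled to a common library size, after that scaling. SEU itself was at 40.6 to 54.5 CPM in the 8 Col-0 libraries and at 0.401 to 1.16 CPM in the 8 seu-6 libraries, so the label of genotype held in every library. The 16 root markers, led by the beta-glucosidase gene PYK10, and the 14 leaf photosynthesis markers were all detected in every library. In whole seedlings, fewer cells of a type and less RNA per cell cannot be told apart.

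The 10 genes are spread over all 5 chromosomes, each with 4 exons, no overlapping annotated gene and a coding sequence of 843 to 876 bases (RefSeq annotation of TAIR10.1). Coding sequences were 79.5% to 87.6% identical among the 5 PIP1 genes and 70.6% to 94.8% identical among the 5 PIP2 genes, against 63.4% to 68.7% between the subgroups. PIP2B (chr2:15613368-15615022, minus strand) and PIP2C (chr2:15617635-15619155, plus strand) are the closest pair, at 94.8%, with 45 mismatches in 858 aligned bases. They lie head to head, 2612 bases apart, with no gene between them. Of the windows of 50 bases along the transcripts, 22.0% of those of PIP2B and 21.7% of those of PIP2C occur unchanged in the other gene, and none of the other 8 members shared such a window with any member. The longest stretch the pair shares, coding bases 175 to 416 of both, is printed because a read lying wholly inside it cannot be assigned to 1 of the 2 genes.
shared stretch of PIP2B and PIP2C: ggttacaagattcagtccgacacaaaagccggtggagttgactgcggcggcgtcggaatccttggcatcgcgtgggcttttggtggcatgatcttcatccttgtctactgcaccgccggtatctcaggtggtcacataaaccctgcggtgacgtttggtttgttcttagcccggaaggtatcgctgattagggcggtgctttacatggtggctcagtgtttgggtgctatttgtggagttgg
Counts of these 2 genes, and their split in particular, are therefore less certain than those of the other 8. Reads aligned to more than 1 place have their own summary line in each table, which held 2.11% to 4.48% of reads. The highest share was that of seu-6 6 h mock replicate 1, against 2.35% in replicate 2 of that group.

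Upstream of the annotated starts the pair is far less alike, at 48.6% over an alignment of 300 bases from each gene. Those stretches are shown first, on TAIR10.1, each read 5′ to 3′ toward its gene.
PIP2B, chr2:15615023-15615322, minus strand: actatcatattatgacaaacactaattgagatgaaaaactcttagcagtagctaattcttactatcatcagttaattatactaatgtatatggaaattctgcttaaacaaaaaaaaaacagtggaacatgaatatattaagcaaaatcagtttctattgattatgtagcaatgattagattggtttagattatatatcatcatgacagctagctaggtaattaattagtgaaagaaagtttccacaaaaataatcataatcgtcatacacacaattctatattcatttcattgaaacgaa
PIP2C, chr2:15617335-15617634, plus strand: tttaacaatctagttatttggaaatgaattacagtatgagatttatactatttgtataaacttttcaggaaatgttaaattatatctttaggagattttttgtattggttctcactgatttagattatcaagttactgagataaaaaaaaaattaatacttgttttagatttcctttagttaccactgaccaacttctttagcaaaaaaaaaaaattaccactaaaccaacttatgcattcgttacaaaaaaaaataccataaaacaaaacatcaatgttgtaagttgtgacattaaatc
PIP2A and PIP1E had the largest rises under sorbitol, and PIP1C carries both motifs that were found in any member, so their stretches follow.
PIP2A, chr3:19805731-19806030, minus strand: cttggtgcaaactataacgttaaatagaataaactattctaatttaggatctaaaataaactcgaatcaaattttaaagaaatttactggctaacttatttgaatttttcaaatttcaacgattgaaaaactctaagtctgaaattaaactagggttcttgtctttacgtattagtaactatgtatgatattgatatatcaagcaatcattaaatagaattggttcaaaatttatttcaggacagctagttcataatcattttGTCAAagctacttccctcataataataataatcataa
PIP1E, chr4:187681-187980, minus strand: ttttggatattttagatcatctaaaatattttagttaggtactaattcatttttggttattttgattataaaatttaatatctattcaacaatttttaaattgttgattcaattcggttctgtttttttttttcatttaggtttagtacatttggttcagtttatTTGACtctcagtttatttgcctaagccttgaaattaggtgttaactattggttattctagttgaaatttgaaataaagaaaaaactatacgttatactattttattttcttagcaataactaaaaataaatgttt
PIP1C, chr1:227544-227843, minus strand: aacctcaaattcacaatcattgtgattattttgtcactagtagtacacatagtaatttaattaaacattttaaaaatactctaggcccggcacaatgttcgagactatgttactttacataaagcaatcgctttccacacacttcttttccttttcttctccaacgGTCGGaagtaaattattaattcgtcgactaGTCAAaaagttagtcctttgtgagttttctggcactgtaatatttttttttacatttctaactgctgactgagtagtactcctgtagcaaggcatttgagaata
Capitals mark matches to 1 of 4 motifs of stress-related transcription factors, sought on both strands: the ABRE core ACGTGNC, the G-box CACGTG, the DRE core CCGAC and the W-box core TTGAC, of which the first 2 can overlap. The ABRE core and the G-box occurred upstream of 0 of the 10 members, against 9.46% and 7.09% of the stretches of 27443 protein-coding genes. The DRE core occurred upstream of PIP1C alone, starting 134 bases before the gene, against 13.9% of all genes. The W-box core occurred upstream of 5 members, PIP1C, PIP1E, PIP1D, PIP2A and PIP3, against 50.4% of all genes. A match is a run of letters in this window and says nothing of binding.

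Per kilobase of coding sequence, 4 members stood above the rest in Col-0 in the 15 min mock: PIP1C at 662 CPM per kb, PIP1B at 659, PIP2A at 652 and PIP3 at 594. PIP1B is known for water and carbon dioxide transport, PIP2A for water flow in roots and for guard cell responses. PIP1A, PIP2B, PIP1D and PIP1E followed at 286, 256, 245 and 198 CPM per kb. PIP2F, known mainly from roots, was at 74.8 and PIP2C at 30.7 CPM per kb. In the 6 h mock of Col-0 the order began with PIP1B at 616, PIP3 at 527, PIP2A at 470 and PIP1A at 400 CPM per kb, and PIP1C came next at 306. PIP2F and PIP2C were again the lowest members, at 40.8 and 31.8. These 2 mocks differ in the age of the seedlings, in time and in experiment, which cannot be told apart.

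Across the 8 groups the members moved by unlike amounts. PIP1D and PIP2F had the widest range, with a highest group mean 5.31 and 5.30 times the lowest. PIP1D stood at 224 ± 5.49 CPM (SD, n = 2) in seu-6 in the 15 min mock and at 42.2 ± 1.18 in Col-0 under sorbitol. PIP2F ranged from 65.5 ± 3.29 CPM in Col-0 in the 15 min mock to 12.4 ± 0.253 in seu-6 under sorbitol. PIP1C followed with a ratio of 3.81, from 668 ± 18.5 in Col-0 under NaCl to 175 ± 3.21 CPM in seu-6 under sorbitol. The other 7 members had ratios between 1.77 and 2.30. With groups ordered by mean, neighbours differed by more than the sum of their SDs in all 7 steps for PIP1A, PIP1C, PIP2A and PIP3, but in only 2 of 7 steps for PIP2B, whose 6 groups outside NaCl lay between 205 ± 2.31 and 219 ± 1.80 CPM. Over the 16 libraries, PIP1D and PIP3 had the most similar profiles of log2 CPM (Pearson r = 0.94) and PIP1A and PIP1C the most opposite (r = -0.90), descriptions that share the libraries and the contrast between the 2 experiments.

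**Figure D1:**
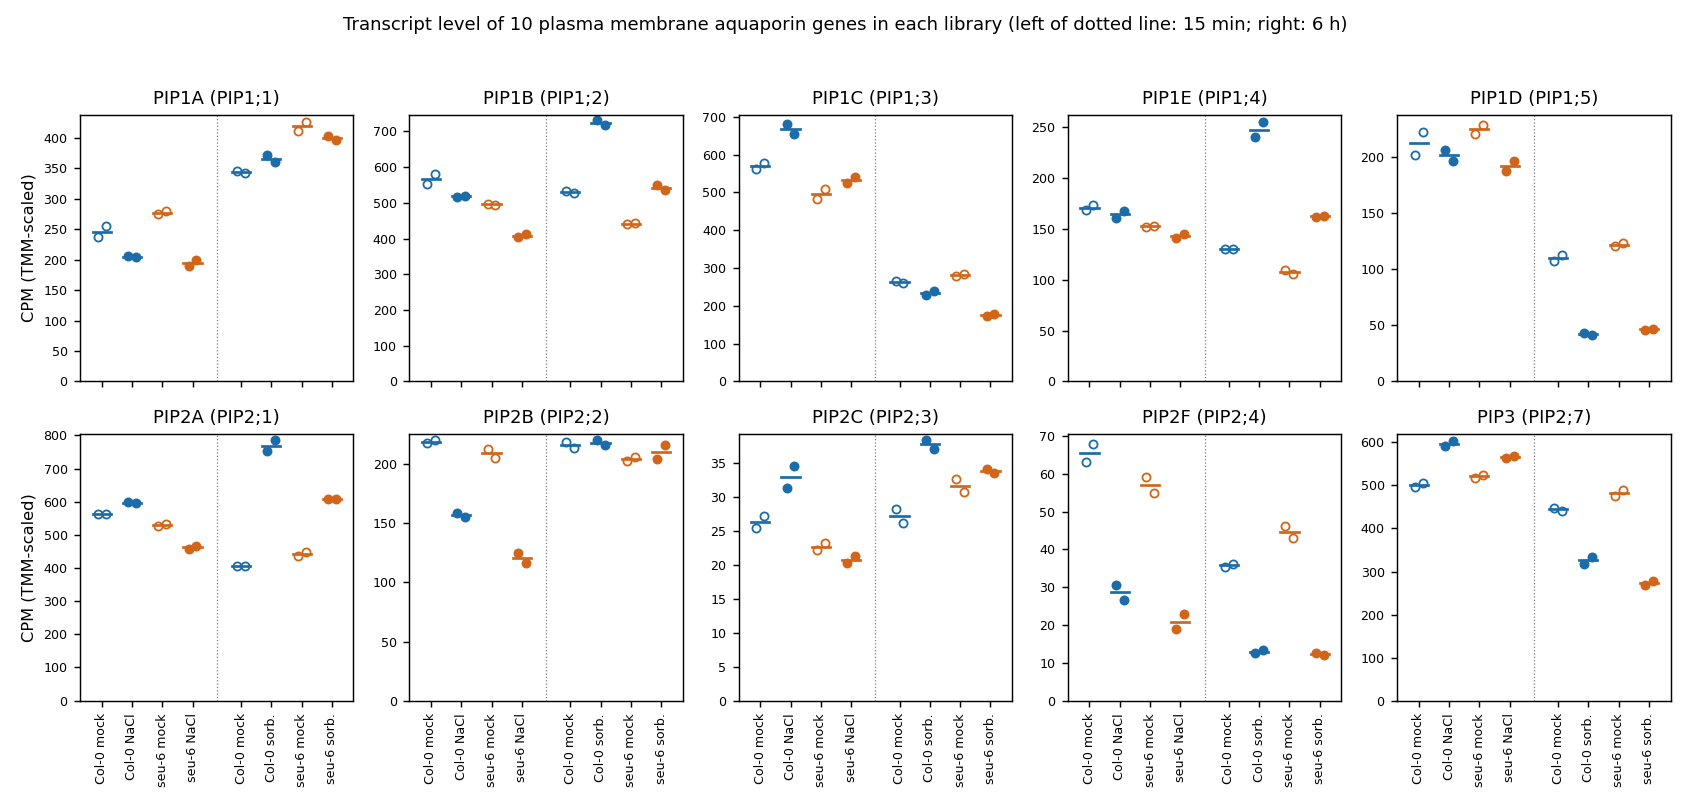
TMM-scaled CPM (y axis, from 0, with a scale for each gene) of the 10 genes in each of the 16 libraries, with Col-0 in blue, seu-6 in orange, open circles for mocks, filled circles for treatments and bars for group means. PIP2F is lower under each treatment than in the mock of the same genotype, and PIP1C and PIP1D lie higher in the 15 min groups than in the 6 h groups.

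Within 15 min of NaCl, the PIP genes of Col-0 moved both ways, with falls of PIP2F, PIP2B, PIP1A and PIP1B and rises of PIP2C, PIP3, PIP1C and PIP2A. Thus 4 members rose and 4 fell at an edgeR adjusted p under 0.05, against 15.8% and 17.6% of the 22066 genes tested (3482 and 3893, or 5152 and 3007 when scaled by library totals alone). The median log2 fold change of the members was -0.06 and that of all genes 0.01. Fold changes are on the log2 scale ± a standard error derived from the edgeR fit, which pools the spread over 8 libraries and across genes.

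PIP2F, the root-enriched member, fell the most. It stood at 63.2 and 67.9 CPM in the Col-0 mock and at 30.7 and 26.7 under NaCl, and in seu-6 at 59.3 and 54.9 in the mock and at 18.9 and 22.8 under NaCl. In both genotypes the libraries with NaCl lay far below those without. The log2 change was -1.19 ± 0.070 in Col-0 (edgeR adjusted p = 3.4e-25) and -1.47 ± 0.074 in seu-6 (2.7e-29).

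PIP2B, a water channel with a part in root water transport, fell from 218 and 221 CPM in the Col-0 mock to 159 and 156 under NaCl, and from 213 and 206 to 125 and 117 in seu-6. Treated and untreated libraries did not overlap in either genotype. Its changes were -0.48 ± 0.035 (edgeR adjusted p = 4.2e-21) and -0.81 ± 0.036 (1.5e-34). Its close copy PIP2C, first described as the dehydration-responsive gene RD28, was at 25.5 and 27.2 CPM in the Col-0 mock and at 31.3 and 34.6 under NaCl. In seu-6 it was at 22.2 and 23.2 and at 20.3 and 21.3 CPM. PIP2C thus rose in Col-0 by 0.32 ± 0.081 (edgeR adjusted p = 7.9e-04), a call that did not hold without Col-0 NaCl replicate 2 (0.23, adjusted p = 0.086), and its change in seu-6 was -0.14 (0.21). With the reads of the pair summed, the pair, mostly PIP2B reads, fell by 0.37 in Col-0 and by 0.73 in seu-6. That sum does not test the direction of PIP2C, and the split of reads between the 2 copies was not tested. The share of PIP2C in the counts of the pair was 10.5% and 11.0% in the Col-0 mock and 16.5% and 18.2% under NaCl. In seu-6 that share was 9.44% and 10.1% in the mock and 13.9% and 15.4% under NaCl, higher in every treated library than in any mock library.

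PIP1C and PIP3 rose in both genotypes. PIP1C was at 562 and 578 CPM in the Col-0 mock and at 681 and 654 under NaCl, a rise of 0.23 ± 0.026 (edgeR adjusted p = 2.9e-12). In seu-6 it was at 482 and 509 and at 524 and 541 CPM, a rise of 0.09 (0.0072) that was lost without seu-6 mock replicate 1 (0.05, adjusted p = 0.33) or without seu-6 NaCl replicate 2 (0.07, adjusted p = 0.10). PIP3, a PIP2 member whose protein is known to bind the membrane protein TSPO and the SNARE SYP121, went from 497 and 505 to 591 and 603 CPM in Col-0, by 0.25 ± 0.025 (edgeR adjusted p = 6.0e-15). In seu-6 it went from 518 and 524 to 564 and 569 CPM, by 0.10 (5.4e-04).

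PIP2C thus had opposite signs in the 2 genotypes under NaCl, though its change in seu-6 was not called. PIP2A alone was called in opposite directions. Its levels in Col-0 were 563 and 564 CPM in the mock and 598 and 595 under NaCl, and in seu-6 527 and 533 in the mock and 458 and 466 under NaCl. The 2 treated libraries of Col-0 were the highest and those of seu-6 the lowest of the 8. The rise in Col-0 was small, 0.08 ± 0.025 (edgeR adjusted p = 0.0044), and was not called without Col-0 mock replicate 1 (adjusted p = 0.12), without Col-0 NaCl replicate 1 (0.16), without Col-0 NaCl replicate 2 (0.11) or with no filter on low counts (0.055). The fall in seu-6 was -0.22 ± 0.025 (edgeR adjusted p = 6.4e-12) and was called in every alternative run.

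PIP1A and PIP1B fell in both genotypes. PIP1A changed by -0.27 ± 0.032 in Col-0 and by -0.53 ± 0.033 in seu-6 (edgeR adjusted p = 6.0e-11 and 1.4e-25). PIP1B changed by -0.13 ± 0.026 in Col-0 (2.7e-05, and adjusted p = 0.056 when scaled by library totals alone) and by -0.30 in seu-6 (2.9e-17). PIP1D and PIP1E were called lower in seu-6 alone, by -0.24 and -0.11, but whether they differed between genotypes is a separate test, given further on. PIP1D was also called lower in Col-0 without Col-0 mock replicate 1 (-0.16, adjusted p = 7.5e-04), without Col-0 NaCl replicate 1 (-0.13, 0.019) and with no filter on low counts (-0.09, 0.020). The call of PIP1E in seu-6, at an edgeR adjusted p of 0.016, was lost without seu-6 mock replicate 1 (0.069), seu-6 mock replicate 2 (0.083) or seu-6 NaCl replicate 1 (0.15). In seu-6, then, 2 members rose and 7 fell, against 12.0% and 17.9% of genes tested (2654 and 3950, or 4845 and 2908 when scaled by library totals alone), with a median of -0.23 against -0.00 over all genes.

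Most root markers also fell under NaCl, against 17.6% of genes tested lower in Col-0 and 17.9% in seu-6. Of the 16, 10 fell and 1 rose in Col-0 under NaCl, with a median of -0.70, and 11 fell in seu-6, with a median of -0.79. The endodermal gene CASP1 changed by -1.36 and -1.66. Without PYK10, their summed level was 295 to 309 CPM in the Col-0 mock and 195 to 207 under NaCl, and 254 to 259 and 155 to 159 in seu-6. With PYK10 it was 3575 to 3612 and 2428 to 2466 in Col-0, and 4597 to 4609 and 2985 to 3073 in seu-6. Of the 14 leaf photosynthesis markers 12 fell in Col-0 and 9 in seu-6, their summed level going from 64148 to 64969 in the Col-0 mock to 56822 to 58055, and from 70809 to 71212 in the seu-6 mock to 62572 to 66285. The part of these shifts in the changes of the PIP genes was not tested.

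Under 6 h of sorbitol in Col-0, PIP1E, PIP2A, PIP2C, PIP1B and PIP1A rose, and PIP2F, PIP1D, PIP3 and PIP1C fell. Those 5 rises and 4 falls stand against 31.3% and 31.2% of the 21633 genes tested (6777 and 6739, or 5235 and 8575 when scaled by library totals alone, which shifts the median of all genes by -0.13). The median log2 fold change was 0.06 for the members and -0.00 for all genes. PIP1A was the smallest of the rises, at 0.10 ± 0.033 (edgeR adjusted p = 0.0073). Its sign turned with library totals alone (-0.03), and its call was lost without Col-0 sorbitol replicate 1 (0.07, adjusted p = 0.11).

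PIP2A and PIP1E rose together and by almost the same amount in Col-0. PIP2A was at 405 and 407 CPM in the Col-0 mock and at 753 and 786 under sorbitol, and at 436 and 448 and at 609 and 608 in seu-6. PIP1E, known for carbon dioxide and hydrogen peroxide transport, was at 130 and 130 CPM in the Col-0 mock and at 241 and 255 under sorbitol, and at 110 and 105 and at 162 and 163 in seu-6. For both, treated libraries lay above all mock libraries, and Col-0 above seu-6 among the treated. The changes of PIP2A were 0.93 ± 0.032 in Col-0 and 0.48 ± 0.032 in seu-6 (edgeR adjusted p = 1.2e-34 and 2.1e-20). Those of PIP1E were 0.94 ± 0.037 and 0.61 ± 0.038 (2.0e-31 and 9.4e-22). PIP1B rose by 0.46 ± 0.031 in Col-0 and by 0.31 in seu-6 (3.9e-20 and 3.5e-13).

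PIP1D and PIP2F fell to less than any other group's level in both genotypes. PIP1D went from 107 and 113 CPM to 43.1 and 41.4 in Col-0, and from 120 and 123 to 45.9 and 46.8 in seu-6, changes of -1.37 ± 0.048 and -1.38 ± 0.047 (edgeR adjusted p = 3.0e-34 and 2.2e-34). PIP2F went from 35.4 and 36.1 CPM to 12.6 and 13.4 in Col-0, and from 46.2 and 43.0 to 12.6 and 12.2 in seu-6, changes of -1.45 ± 0.077 and -1.83 ± 0.077 (3.0e-25 and 4.4e-30). Under sorbitol the 2 genotypes had nearly the same level of PIP2F, although their mocks did not overlap.

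PIP3 and PIP1C, which rose under 15 min of NaCl, fell under 6 h of sorbitol in both genotypes. PIP3 went from 448 and 441 CPM to 318 and 334 in Col-0 and from 475 and 489 to 269 and 278 in seu-6, changes of -0.44 ± 0.034 and -0.80 ± 0.034 (edgeR adjusted p = 6.9e-18 and 6.6e-30). PIP1C went from 266 and 261 to 229 and 239 CPM in Col-0 and from 279 and 285 to 173 and 177 in seu-6, changes of -0.16 ± 0.034 and -0.67 ± 0.034 (4.3e-05 and 8.7e-26). The 2 treatments differ in agent, duration and seedling age, so the opposite signs are set side by side and cannot be laid to any 1 of these.

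PIP2B was not called in either genotype, with 219 and 214 CPM in the Col-0 mock and 221 and 216 under sorbitol, and 203 and 207 and 204 and 217 in seu-6. Its changes were 0.02 (edgeR adjusted p = 0.58) and 0.05 (0.18), and scaling by library totals alone turned both signs (-0.10 and -0.04). PIP2C rose in Col-0, from 28.3 and 26.2 to 38.4 and 37.1 CPM, by 0.48 ± 0.067 (5.6e-09), and its change in seu-6 was 0.11 (0.15). In seu-6 as a whole, 3 members rose, 4 fell and 3 were not called, against 28.9% and 29.0% of genes tested higher and lower (6255 and 6284, or 5052 and 7715 with library totals alone).

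Of the root markers 4 rose and 6 fell in Col-0 under sorbitol and 5 rose and 5 fell in seu-6. Their summed level without PYK10 was 272 to 277 CPM in the Col-0 mock and 197 to 217 under sorbitol, and 253 to 261 and 203 to 205 in seu-6. Of the 14 leaf photosynthesis markers, 10 rose and 4 fell in Col-0, and 11 rose and 3 fell in seu-6. Among all genes tested 31.3% rose and 31.2% fell in Col-0, and 28.9% and 29.0% in seu-6. The leaf marker sums were 57334 to 59283 CPM in the mock and 66829 to 67604 under sorbitol in Col-0. In seu-6 they were 49865 to 50399 and 60972 to 62015. The part of either marker list in the changes of the PIP genes was not tested.

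**Figure D2:**
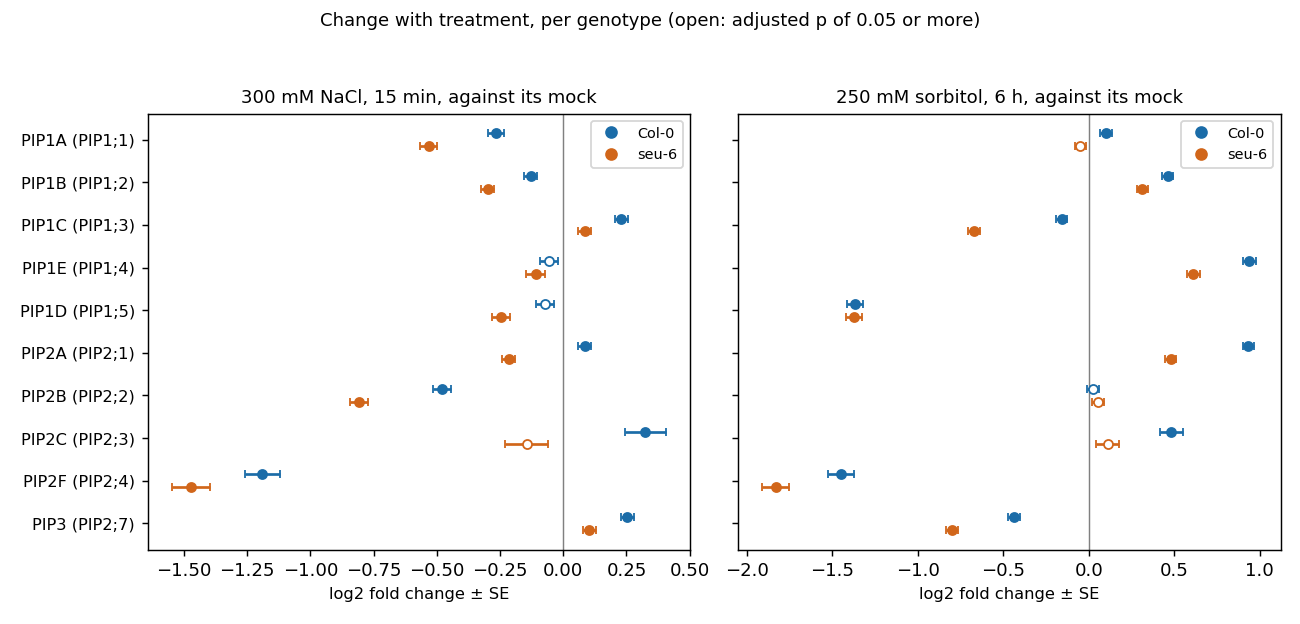
Log2 fold change ± SE of each gene under NaCl for 15 min (left) and sorbitol for 6 h (right) against the mock of the same genotype, with Col-0 in blue, seu-6 in orange and open circles where the edgeR adjusted p was not under 0.05. The seu-6 point lies left of the Col-0 point for all 10 genes under NaCl, and under sorbitol for all but PIP2B. The sorbitol points of PIP1D nearly coincide, at -1.37 in Col-0 and -1.38 in seu-6.

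The genotypes were next compared within each medium. In the 15 min mock, 1 member was higher and 6 were lower in seu-6, against 14.0% and 12.9% of genes tested (3084 and 2852, or 2322 and 3644 with library totals alone). PIP1A was the higher one, at 238 and 255 CPM in Col-0 and 275 and 280 in seu-6, a difference of 0.17 (edgeR adjusted p = 1.5e-05). The lower ones were PIP1B, PIP1C, PIP1E, PIP2A, PIP2C and PIP2F, by -0.22 to -0.09, the highest adjusted p being 0.039 for PIP2C. The call of PIP2C was lost without Col-0 mock replicate 2 (adjusted p = 0.27) and without either seu-6 mock replicate (0.22 and 0.081). That of PIP2F was lost without Col-0 mock replicate 2 (0.23) or seu-6 mock replicate 2 (0.26), and that of PIP2A without seu-6 mock replicate 1 (0.056).

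Under NaCl, all 10 members had a lower level in seu-6, against 16.1% of genes tested, and 13.6% of genes were higher. These shares span genes with far fewer reads than the members, which were also chosen with earlier results of these data known. No member was higher by edgeR, 0 at an unadjusted p under 0.05 and 0 with DESeq2. Both seu-6 libraries lay below both Col-0 libraries for each of the 10, a separation whose share among all genes was not computed. The median difference was -0.36, and -0.02 over all genes. PIP2C differed most, by -0.69 ± 0.083 (edgeR adjusted p = 3.6e-11), followed by PIP2F at -0.48 ± 0.076 (2.1e-07), PIP2B at -0.40 ± 0.036 (2.7e-16), PIP2A at -0.39 ± 0.025 (1.3e-24) and PIP1B at -0.37 ± 0.026 (4.7e-22). PIP1C and PIP1E differed by -0.35 and -0.22 (1.2e-20 and 4.3e-07). The differences of PIP3, PIP1A and PIP1D were near -0.10 (-0.10, -0.10 and -0.09, edgeR adjusted p = 9.7e-04, 0.015 and 0.040). PIP1A and PIP1D lost their calls with DESeq2 (0.051 and 0.37), with no filter (0.075 and 0.12) and with all 16 libraries in 1 fit (0.081 and 0.19), which leaves 8 of 10. Leaving out single libraries left 7 to 10 members lower, with PIP1D lost in 6 of 8 cases, PIP1A in 4 of 8 and PIP3 without Col-0 NaCl replicate 2 (adjusted p = 0.17). Of the 16 root markers, 8 were lower and 1 higher in seu-6 in the mock, and 10 lower and 1 higher under NaCl. Of the 14 leaf markers, 9 were higher and 2 lower in the mock, and 10 higher and 2 lower under NaCl. In the mock, 14.0% of genes tested were higher and 12.9% lower. With PYK10 the root marker sum in the mock was 3575 to 3612 CPM in Col-0 and 4597 to 4609 in seu-6. Under NaCl it was 2428 to 2466 in Col-0 and 2985 to 3073 in seu-6. Without PYK10 those sums were 295 to 309 and 254 to 259 in the mock, and 195 to 207 and 155 to 159 under NaCl. The part of either marker list in these differences was not tested.

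In the 6 h mock, 7 members were higher in seu-6 and 2 lower, against 16.0% and 11.8% of genes tested. PIP2F and PIP1A were higher by 0.32 and 0.28 (edgeR adjusted p = 2.2e-04 and 1.9e-10). PIP2C, PIP1D, PIP2A, PIP3 and PIP1C were higher by 0.10 to 0.21, with adjusted p between 0.0024 and 0.027. When single libraries were left out 4 to 6 members were higher. PIP1C was lost in 7 of 8 such cases, PIP1D without Col-0 mock replicate 1 (0.16) or seu-6 mock replicate 2 (0.10), PIP2C without Col-0 mock replicate 2 (0.17) or seu-6 mock replicate 1 (0.13), and PIP3 without replicate 2 of either mock (0.062 and 0.078). PIP1B, at 534 and 527 CPM in Col-0 and 442 and 442 in seu-6, and PIP1E were lower, by -0.26 and -0.28 (3.7e-10 and 2.0e-08). PIP2B was not called, though edgeR with DESeq2's size factors called it lower (-0.089, adjusted p = 0.047), as did library totals alone (-0.10, 0.021). Under sorbitol, 2 members were higher in seu-6 and 5 lower, against 17.5% and 17.4% of genes tested. The lower ones were PIP1E by -0.61 ± 0.037 (1.5e-21), PIP1C by -0.42 (7.1e-16), PIP1B by -0.41 (2.6e-17), PIP2A by -0.33 (1.3e-13) and PIP3 by -0.25 (1.0e-08). PIP1A and PIP1D were higher by 0.13 and 0.14 (9.7e-04 and 0.027), the latter not with DESeq2 (0.065). Neither was called without Col-0 sorbitol replicate 2 (adjusted p = 0.051 and 0.22), nor PIP1D without seu-6 sorbitol replicate 1 (0.087) or 2 (0.16). PIP1B and PIP1E were the 2 members lower in seu-6 in all 4 media, and the share of all genes lower in all 4 was not computed. Of the leaf photosynthesis markers, 3 were higher and 11 lower in seu-6 in the 6 h mock, and 4 higher and 6 lower under sorbitol. Of the root markers, 2 were higher and 1 lower in the mock, and 4 higher and 1 lower under sorbitol. With PYK10 the root marker sum was 2490 to 2609 CPM in Col-0 and 4159 to 4452 in seu-6 in the mock. Under sorbitol it was 2285 to 2441 and 4026 to 4085. Without PYK10 the sum was 272 to 277 CPM in Col-0 and 253 to 261 in seu-6 in the mock. Under sorbitol that smaller sum was 197 to 217 and 203 to 205. The part of either list in these differences was not tested.

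**Figure D3:**
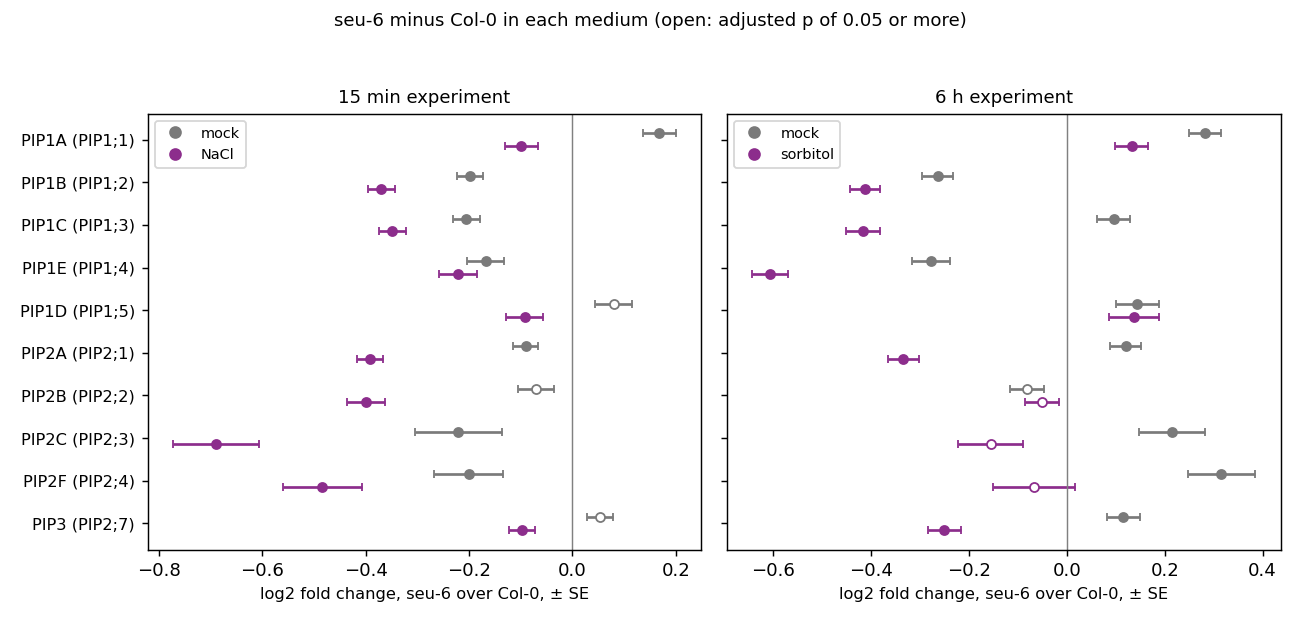
Log2 difference ± SE of seu-6 from Col-0 for each gene in the 15 min experiment (left) and the 6 h experiment (right), with mocks in grey, treatments in purple and open circles where the edgeR adjusted p was not under 0.05. Every NaCl point lies left of 0, and the treatment point lies left of the mock point for all 10 genes at 15 min and for all but PIP2B at 6 h.

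Whether the genotypes responded differently was tested as an interaction, the log2 response of seu-6 minus that of Col-0. Under NaCl it was lower in seu-6 for 8 of the 10 members, against 4.59% of genes tested, and under sorbitol also for 8 of 10, against 7.38% (1216 genes higher and 1596 lower, or 1654 and 1256 with library totals alone). Higher responses in seu-6 were called for 2.59% and 5.62% of genes and for 0 members in each experiment, also 0 at an unadjusted edgeR p under 0.05 and 0 with DESeq2. The median interaction of the members was -0.22 under NaCl and -0.35 under sorbitol, and -0.02 over all genes under NaCl. Of the leaf photosynthesis markers, 1 of 14 was called under NaCl and 10 under sorbitol, each with a higher response in seu-6, with medians of 0.02 and 0.13. Of the 16 root markers, 3 were called under NaCl, each with a lower response in seu-6, and under sorbitol 1 had a higher and 2 a lower response, with medians of -0.19 and 0.19. Their part in the interactions of the PIP genes was not tested. The 2 tests share no library, and 6 members were called in both: PIP1A, PIP1B, PIP1C, PIP2A, PIP2C and PIP3. The share of all genes called in both was not computed.

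Under NaCl the interaction of PIP2A was -0.30 ± 0.035 (edgeR adjusted p = 7.3e-11), that of PIP2B -0.33 ± 0.050 (3.6e-07) and that of PIP1A -0.27 ± 0.046 (7.2e-06), and these 3 were called whichever library was left out. PIP2C had the largest, -0.47 ± 0.12 (0.0038). Smaller values were called for PIP1D and PIP1B (both -0.17, adjusted p = 0.019 and 3.9e-04), PIP3 (-0.15, 0.0014) and PIP1C (-0.14, 0.0046). Without Col-0 mock replicate 1 those 5 were no longer called (adjusted p between 0.065 and 0.60), which leaves 3 of 10 and not 8. PIP2C and PIP3 were also lost without Col-0 NaCl replicate 2 (0.11 and 0.15), PIP1C and PIP1D without Col-0 NaCl replicate 1 (0.36 and 0.40) or seu-6 mock replicate 2 (both 0.17), and PIP1D without seu-6 NaCl replicate 1 (0.071). PIP2F and PIP1E were not called, at -0.28 ± 0.10 (0.081) and -0.05 ± 0.051 (0.70). Over the left-out libraries the value of PIP2F lay between -0.42 and -0.15, so whether it is called depends on the libraries used.

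Under sorbitol the interaction was largest for PIP1C, at -0.51 ± 0.048 (edgeR adjusted p = 7.4e-13), and PIP2A, at -0.45 ± 0.045 (4.3e-12). PIP3 (-0.37 ± 0.048, 1.7e-08), PIP2C (-0.37 ± 0.095, 0.0038) and PIP1E (-0.33 ± 0.053, 3.0e-06) followed, and all 5 were called whichever library was left out. PIP2F (-0.38 ± 0.11, 0.010), PIP1A (-0.15 ± 0.047, 0.021) and PIP1B (-0.15 ± 0.044, 0.016) were not called without seu-6 sorbitol replicate 2 (0.060, 0.13 and 0.14), which leaves 5 of 10. Calls were also lost for PIP2F without seu-6 mock replicate 1 (0.069) or Col-0 sorbitol replicate 2 (0.079), for PIP1A without Col-0 mock replicate 2 (0.071), seu-6 mock replicate 2 (0.11) or Col-0 sorbitol replicate 1 (0.14), and for PIP1B without Col-0 mock replicate 2 (0.066) or Col-0 sorbitol replicate 1 (0.086). With library totals alone PIP1A and PIP1B were also lost (0.094 and 0.079). PIP1D and PIP2B had interactions of -0.01 ± 0.067 (0.97) and 0.03 ± 0.049 (0.76). PIP1D is thus the member with a deep fall under sorbitol and no detected difference between genotypes. With the pair summed, PIP2C has no call of its own, and the pair's interaction under sorbitol was -0.02 (0.86).

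Summed over the 10 genes, the level in Col-0 was 3088 and 3195 CPM in the 15 min mock and 3180 and 3158 under NaCl, and in seu-6 it was 2964 and 3005 in the mock and 2631 and 2690 under NaCl. In the 6 h experiment Col-0 had 2520 and 2498 CPM in the mock and 2958 and 2999 under sorbitol, and seu-6 had 2556 and 2598 and 2463 and 2468. The sum in Col-0 overlapped its mock under NaCl and lay above it under sorbitol, whereas in seu-6 it lay below its mock under both. As an unscaled share of gene counts the 10 genes made up 0.294% and 0.304% in the Col-0 mock and 0.318% and 0.315% under NaCl, and 0.272% and 0.276% and 0.254% and 0.258% in seu-6. Under sorbitol that share went from 0.274% and 0.272% to 0.297% and 0.301% in Col-0 and from 0.274% and 0.278% to 0.250% and 0.252% in seu-6. Sums are of CPM, not per length. Their largest parts came from PIP1B, PIP1C, PIP2A and PIP3 at 15 min, and from PIP1A, PIP1B, PIP2A and PIP3 at 6 h.

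**Figure D4:**
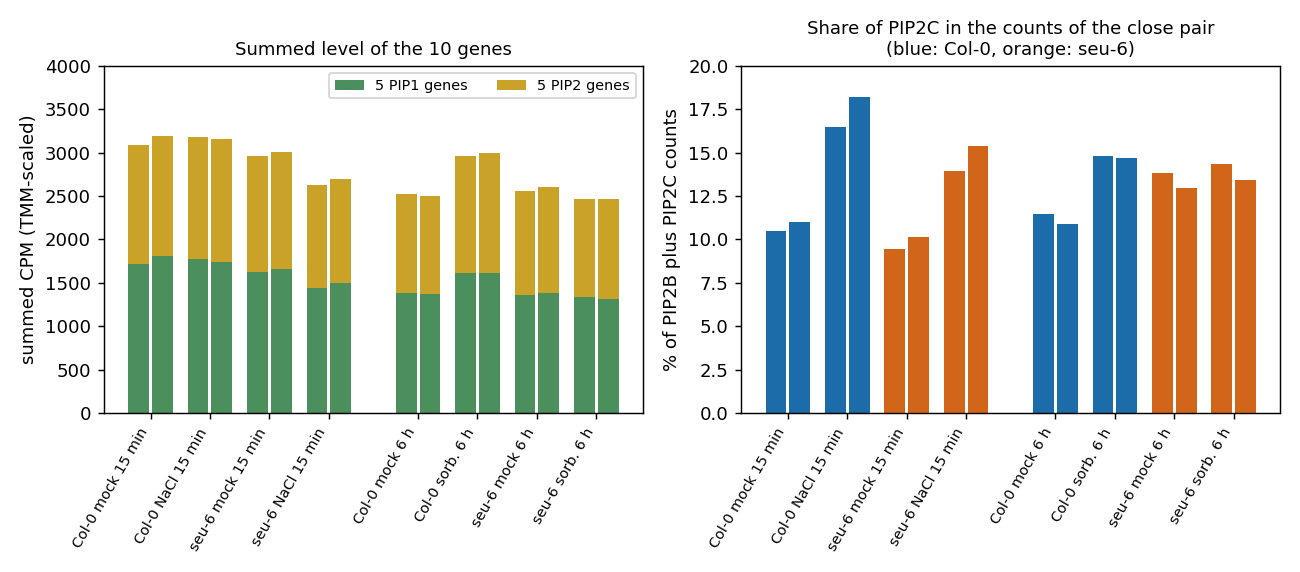
Left, summed TMM-scaled CPM of the 5 PIP1 (green) and 5 PIP2 genes (yellow) in each of the 16 libraries, and right, PIP2C as a percentage of PIP2B plus PIP2C counts, with Col-0 in blue and seu-6 in orange. The sum is lowest at 6 h, between 2463 and 2598 CPM outside Col-0 under sorbitol, and the share of PIP2C is highest in Col-0 under NaCl, at 16.5% and 18.2%.

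Of the other 3 PIP genes, PIP2E (PIP2;6), a PIP2 known from shoots, was well expressed and PIP2;5 and PIP2;8 were low. PIP2E was at 267 and 273 CPM in the Col-0 mock and 328 and 307 under NaCl, and at 208 and 214 and at 221 and 213 in seu-6. It rose in Col-0 by 0.24 ± 0.031 (edgeR adjusted p = 8.0e-10), was not called in seu-6 (0.03, 0.59) and had an NaCl interaction of -0.21 ± 0.045 (4.0e-04), the direction of the 8 members called. Under sorbitol PIP2E rose in both, by 0.47 ± 0.034 in Col-0 and 0.62 ± 0.034 in seu-6 (4.1e-19 and 3.2e-24). Its sorbitol interaction was 0.15 ± 0.048 (0.030), opposite in sign to the members called. PIP2;5 and PIP2;8 had no interaction called in either experiment. Between genotypes, 2 of these 3 genes were lower in seu-6 in the 15 min mock, 2 under NaCl and 2 under sorbitol. Of all genes tested 12.9%, 16.1% and 17.4% were lower there. In the 6 h mock all 3 were lower, against 11.8% of genes tested, whereas 7 of the 10 members were higher.

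Among tonoplast aquaporins (TIPs), the channels of the vacuole membrane, 5 of 10 rose and 4 fell under NaCl in Col-0 and 4 rose and 5 fell in seu-6, against 15.8% and 17.6% of all genes in Col-0 and 12.0% and 17.9% in seu-6. Of the 5 rises in Col-0, those of TIP3;1 and TIP5;1 rest on few reads, with 0 counts in both mock libraries and 45 and 17, and 14 and 12, under NaCl. TIP2;1 rose in Col-0 by 0.44 ± 0.024 (edgeR adjusted p = 2.7e-29), and TIP2;2 fell by 0.78 there and by 1.29 in seu-6. The NaCl interaction was lower in seu-6 for 4 of 10 TIPs, against 4.59% of genes tested, and higher for 0, against 2.59%. Among the 4 were TIP2;1 (-0.33 ± 0.034, edgeR adjusted p = 6.2e-13) and TIP2;2 (-0.51 ± 0.062, 3.5e-10). Under sorbitol 5 of the 8 TIPs tested fell in Col-0, TIP2;1 by 1.57, against 31.2% of genes tested. The sorbitol interaction was called higher for 3 TIPs and lower for 1, TIP2;1 (-0.19, 0.0033), against 5.62% and 7.38% of genes tested. Of the 10 NIP and SIP genes tested, aquaporins of other membranes and substrates, 3 fell under NaCl in Col-0 and 4 in seu-6. Of all genes tested 17.6% and 17.9% fell there. Under sorbitol 4 of the NIP and SIP genes rose and 4 fell in Col-0, against 31.3% and 31.2% of genes tested. In seu-6 3 of them rose and 4 fell, against 28.9% and 29.0%. The boric acid channel gene NIP5;1 rose under sorbitol by 1.59 in Col-0 and 1.63 in seu-6.

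Of 17 genes for PIP trafficking, phosphorylation and turnover, 8 rose and 4 fell in Col-0 under sorbitol, against 31.3% and 31.2% of all genes, and 6 rose and 6 fell in seu-6, against 28.9% and 29.0%. UBC32, a ubiquitin-conjugating enzyme of PIP2 degradation, went from 47.2 and 47.8 to 114 and 121 CPM in Col-0 and from 42.5 and 45.5 to 92.4 and 94.2 in seu-6. Its changes were 1.43 ± 0.049 and 1.17 ± 0.050 (edgeR adjusted p = 1.1e-34 and 1.0e-29), and its interaction was -0.26 ± 0.070 (0.0065). OST1, a kinase that phosphorylates PIP2A, rose by 1.23 ± 0.072 and 0.83 ± 0.073 (4.4e-23 and 2.3e-15), with an interaction of -0.40 (0.0043). TSPO, whose product takes PIP3 to degradation, had 0 counts in both Col-0 libraries of the 6 h mock and was at 42.3 and 38.0 CPM under sorbitol. In seu-6 TSPO was at 0.301 and 0.230 CPM in the mock and at 18.0 and 16.9 under sorbitol. Under NaCl, 4 of the 17 rose and 5 fell in Col-0, against 15.8% and 17.6% of all genes, and 2 rose and 5 fell in seu-6, against 12.0% and 17.9%. SYP121, a SNARE that delivers PIPs to the plasma membrane, fell by 0.49 in Col-0 and by 0.35 in seu-6 (6.2e-23 and 3.4e-15). RMA1, a ubiquitin ligase that acts on PIP2A, rose by 0.77 and 0.54 (4.3e-14 and 1.1e-08).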

How the data were processed

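Transcripts were measured by RNA sequencing of poly(A) RNA from whole seedlings, per the labels' protocols, in 16 libraries that the labels place in 8 groups of 2. The authors deposited raw counts of reads per gene locus, with a separate table for every library. The tools named in the submitters' processing notes are HISAT2 2.2.1, HTSeq 0.13.5 and DESeq2, and the genome is TAIR10. Not given in the sources used here are the strand setting, the annotation release and any filter. The 5 summary lines of each table, 8.78% to 12.7% of reads, entered neither the library sizes nor the tests. Without a stated strand setting, reads of overlapping genes cannot be told apart, but no member overlaps an annotated gene.

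The 8 libraries of an experiment shared 1 fit, tested with edgeR 4.0.16 in R 4.3.3 by its quasi-likelihood F test (robust option, TMM scaling, filterByExpr with its minimum count of 10, 1 mean per group, no block, 4 residual degrees of freedom). P-values were adjusted by Benjamini-Hochberg over all genes tested, and genes with an adjusted p under 0.05 were called. All 10 members passed the filter in both experiments. Interactions are the response of seu-6 minus that of Col-0. Levels are CPM scaled by TMM over all 16 libraries, and per kb of coding length where genes are compared. Intervals were not computed, and the SD of 2 libraries is a rough guide. The fitting steps were also run on simulated counts, with 200 changed genes and the same spread for every gene. Real genes differ in spread, so no error rate for the members is drawn from that run. Gene symbols, gene models and sequences come from RefSeq for TAIR10.1, matched by locus (32548 of 32833 loci found, all 10 members included). The tables hold no coordinates. The 10 members and all gene lists were chosen with earlier results of these data known.

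Named genes were all members, SEU, up to 4 genes of each list by smallest adjusted p, of which a part is printed, and the 10 non-members with the most similar profile. Replicate numbers did not pair the samples: correlations of same-numbered deviations lay between -0.056 and 0.065. Replicates of each group differed beyond counting noise (chi-square per degree of freedom 3.31 to 8.95, the highest in the 6 h mock of seu-6). The alternatives tried were the test of DESeq2 1.42.0, edgeR with DESeq2's size factors, library totals alone, no filter, a replicate block, all 16 libraries in 1 fit, and the PIP2B and PIP2C counts summed. Single libraries were also left out, and the lone library of such a group was assumed to have the spread of the other groups.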

Additional observations from a re-analysis of the deposited data

Results flagged for a closer look

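The responses of the 2 genotypes differed, by the interaction test of edgeR over all genes, for 8 members in each experiment. Each was lower in seu-6, against 4.59% of genes tested under NaCl and 7.38% under sorbitol. Several of these calls were lost when single libraries were left out, as given above. Under NaCl the log2 response of seu-6 minus that of Col-0 was -0.27 for PIP1A (adjusted p = 7.2e-06), -0.17 for PIP1B (3.9e-04), -0.14 for PIP1C (0.0046) and -0.17 for PIP1D (0.019). For the PIP2 genes it was -0.30 for PIP2A (7.3e-11), -0.33 for PIP2B (3.6e-07), -0.47 for PIP2C (0.0038) and -0.15 for PIP3 (0.0014).

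Under sorbitol it was -0.15 for PIP1A (0.021), -0.15 for PIP1B (0.016), -0.51 for PIP1C (7.4e-13) and -0.33 for PIP1E (3.0e-06). PIP2A had -0.45 (4.3e-12), PIP2C -0.37 (0.0038), PIP2F -0.38 (0.010) and PIP3 -0.37 (1.7e-08). These values were singled out because a test of the difference between genotypes passed. In seu-6 PIP2A went opposite to Col-0 under NaCl, and for the other members called both genotypes moved the same way or 1 of them was not called.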

How the results depend on the processing

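Of the 10 comparisons, the counts of members called at an adjusted p under 0.05 stayed within 1.5 times the reported count in every setting outside left-out libraries, except that DESeq2 called 1 and not 2 members higher in seu-6 under sorbitol. Scaling by library totals alone raised the genes higher under NaCl in seu-6 from 2654 to 4845. It also turned the sign of PIP1E under NaCl in Col-0 (0.012), of PIP1A (-0.028) and PIP2B (-0.10) under sorbitol in Col-0, of PIP2B under sorbitol in seu-6 (-0.035) and of the sorbitol interaction of PIP1D (0.031). The cause of these turns was not tested beyond the change of scaling itself. With the PIP2B and PIP2C counts summed, the pair, mostly PIP2B reads, had a sign other than that of PIP2C under NaCl in Col-0 (-0.37) and in the 6 h mock (-0.046), and other than that of PIP2B in the sorbitol interaction (-0.020). Such a sum does not test the direction of PIP2C. With the replicate block all 100 member changes kept direction and call, the 20 counts of members were the same (8 lower in the NaCl interaction), and counts over all genes moved by less than 1.5 times (1176 and not 1216 higher in the sorbitol interaction).

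Of 800 member changes with a library left out, 715 kept direction and call, 66 lost it, 11 gained it and 8 turned. Ranges over the left-out libraries were 3 to 9 members lower in the NaCl interaction (619 to 964 of all genes), 5 to 8 in the sorbitol interaction, 2 to 4 higher under NaCl in Col-0 (2315 to 3644 of all genes), 1 to 2 higher under NaCl in seu-6, 1 to 2 higher in seu-6 in the 15 min mock, 4 to 6 in the 6 h mock and 0 to 2 under sorbitol. Small values turned for PIP1D in the 15 min mock (-0.0016 to 0.15), PIP1E in the NaCl interaction (-0.073 to 0.0071), and PIP1D (-0.044 to 0.030) and PIP2B (-0.0027 to 0.072) in the sorbitol interaction. In the NaCl interaction PIP1D was not called with DESeq2 (0.37), with no filter (0.055) or with all 16 libraries (0.097), nor PIP1C with all 16 (0.078). The levels of 51 of 80 members and groups moved by over 1 SD with library totals alone. The lowest member count was 507, and PIP2C and PIP2F, the members with the fewest reads, had the largest standard errors.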

Other observations

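The 10 genes outside the list whose log2 CPM over the 16 libraries was most similar to the mean of the 10 members' centred profiles, among 21191 genes, were led by NTMC2T5.2 and NSH3 (both r = 0.95), PUB22 (0.93), AGP12 (0.92), HEXO3 (0.92) and LAC7 (0.92). The other 4 were AT2G04170, AT4G30060, AT4G17810 and AT2G05920, with r between 0.92 and 0.93. The mean profile is not that of each gene. Each gene was also set against the mean profile of the other members, itself left out. Over the 16 libraries that r was positive for PIP2F (0.62), PIP3 (0.58), PIP1C (0.56) and PIP1D (0.43). It was negative for the other 6: PIP1A (-0.60), PIP2C (-0.42), PIP1E (-0.21), PIP2A (-0.20), PIP1B (-0.15) and PIP2B (-0.042). The libraries share an experiment, an age and a time, so these values describe likeness here and nothing of shared control.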
